A study of Homo sapiens with 12 samples.

Results

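The miRNA family of miR-25, miR-32, miR-92 and miR-363 was followed through 12 conditions of OCI-My5 cells, a human multiple myeloma (MM) cell line, on miRNA PCR arrays with 1 array per condition. Its members were taken by name and not by a measured value, but earlier results of these data were known when they were chosen. They are every assay for hsa-miR-25, hsa-miR-32, hsa-miR-92a, hsa-miR-92b or hsa-miR-363, whichever arm of the hairpin it reads. That gave 10 of the 372 miRNA assays on the array, of which 5 read the arm with the shared seed and 5 read the other arm.

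My5.LV cells contain only the lentiviral vector and My5.CRBN cells carry a histidine-tagged CRBN cDNA. The authors describe them as low and high in CRBN, from protein blots. CRBN (cereblon) recruits substrates to an E3 ubiquitin ligase and is the protein that lenalidomide binds. Both lines are infected populations sorted for GFP, and no line was infected anew as a replicate among these arrays. RNA of each line came from un-treated cells, from cells infected with AGO2-sh72 (an shRNA against AGO2, which the labels call EIF2C2), from cells infected with a tagged AGO2 cDNA, from cells given 10 μM lenalidomide for 3 or 5 days, and from cells with both AGO2 cDNA and 3 days of lenalidomide. These arrays are called My5.LV, My5.LV.sh72, My5.LV.AGO2 and so on, and likewise for My5.CRBN. Cells with shRNA or cDNA were selected with puromycin, and arrays of cells with the empty shRNA or cDNA vector were not analysed here, so infection and selection cannot be told apart from the altered AGO2. The array has no assay for AGO2, CRBN or any other mRNA, so the knockdown, the overexpression and the myeloma label could not be checked on it. No array is labelled as treated with vehicle or matched in culture time, so lenalidomide cannot be told apart from either.

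A miRNA is cut from an RNA hairpin as a short duplex, and one strand is kept by an Argonaute protein such as AGO2 while the other is mostly discarded. The kept strand finds its target mRNAs mainly through its seed, bases 2 to 8 from the 5′ end, so miRNAs that share a seed can repress many of the same mRNAs. Members of this family are known in cancer through their gene clusters, above all miR-17-92, an oncogenic cluster that is amplified in some B cell lymphomas, and the mRNA of the pro-apoptotic protein BIM is among their known targets.

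The mature sequences are shown to make the shared part visible. They were matched by name in RefSeq, 10 of 10, and the capitals mark the seed. The 5 assays that define the family all have the seed AUUGCAC:

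hsa-miR-25-3p: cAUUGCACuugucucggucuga
hsa-miR-92a-3p: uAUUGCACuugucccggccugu
hsa-miR-92b-3p: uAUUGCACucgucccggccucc
hsa-miR-32-5p: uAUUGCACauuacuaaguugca
hsa-miR-363-3p: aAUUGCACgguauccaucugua

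No other assay among the 330 of the 372 that were matched to a RefSeq mature sequence has this seed. Outside the seed the members differ. Aligned from the 5′ end without gaps over 22 positions, miR-92a-3p and miR-92b-3p are identical at 19 (U10C, G21C and U22C, with the base of miR-92a-3p first), miR-25-3p and miR-92a-3p at 18 (C1U, U14C, U18C and A22U), miR-32-5p and miR-92a-3p at 11, and miR-363-3p and miR-25-3p at 9. The GC content runs from 31.8% in miR-32-5p and 40.9% in miR-363-3p to 50% in miR-25-3p, 54.5% in miR-92a-3p and 63.6% in miR-92b-3p. How far the assays of miR-92a-3p and miR-92b-3p read each other's RNA was not tested.

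The other arms have seeds of their own, and are shown because they report on single hairpins:

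hsa-miR-25-5p: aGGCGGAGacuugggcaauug
hsa-miR-92a-1-5p: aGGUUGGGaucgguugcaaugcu
hsa-miR-92b-5p: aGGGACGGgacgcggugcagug
hsa-miR-32-3p: cAAUUUAGugugugugauauuu
hsa-miR-363-5p: cGGGUGGAucacgaugcaauuu

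The 10 assays come from 6 hairpin genes at 5 loci (coordinates of GRCh38.p14, RefSeq). MIR25 (chr7:100093560-100093643, minus strand) lies within MCM7, which encodes a subunit of the replicative helicase, 350 bases from MIR106B. MIR32 (chr9:109046229-109046298, minus strand) lies within TMEM245, and MIR92B (chr1:155195177-155195272, plus strand) lies within the non-coding gene THBS3-AS1. MIR92A1 (chr13:91351314-91351391, plus strand) is in MIR17HG, the host of the miR-17-92 cluster, 36 bases from MIR19B1. MIR92A2 (chrX:134169538-134169612) and MIR363 (chrX:134169378-134169452), both on the minus strand and 86 bases apart, are in MIR106AHG, the host of the miR-106a-363 cluster. MIR92A1 and MIR92A2 are shown whole, with the mature arm of the seed in capitals, because they yield the same 22 bases from otherwise different hairpins:

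MIR92A1: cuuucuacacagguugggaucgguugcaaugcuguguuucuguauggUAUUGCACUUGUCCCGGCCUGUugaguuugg
MIR92A2: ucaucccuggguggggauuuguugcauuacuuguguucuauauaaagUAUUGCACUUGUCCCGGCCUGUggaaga

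The miR-92a-3p assay therefore reads both loci at once, and of the assays used only miR-92a-1-5p is particular to the hairpin on chromosome 13.

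The deposited value of a well is its threshold cycle (Ct), the PCR cycle in which the fluorescence passes a set threshold, and less RNA gives a higher Ct. A Ct above 35 was set to 35, and the log2 level of an assay is the mean Ct of 6 small-RNA control wells minus its Ct. Each condition has 1 array, so no difference has a replicate check and p-values are not given. The 6 control wells have log2 fold changes of their own, whose SD serves as the spread of a comparison, and an assay is counted as higher or lower when it differed by at least 3 fold, which is 1.58 on the log2 scale. Per array 324 to 367 miRNAs had a Ct under 35 and the control wells had a mean Ct of 18.7 to 21.9. Wells that hold the same assay on 1 array differed by a root mean square of 0.187 cycles (reverse transcription control) or 0.383 cycles (positive PCR control), but by 1.43 cycles for cel-miR-39, at Ct 31.5 up to the cap.

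Levels of the 10 assays spanned most of the range of the array. Over the 12 arrays the log2 level of hsa-miR-92a-3p lay between -0.25 and 1.52, that of hsa-miR-25-3p between -1.85 and 0.55, that of hsa-miR-32-5p between -8.68 and -5.56 and that of hsa-miR-92a-1-5p between -10.35 and -7.43. miR-92a-3p ranked 10 to 20 among the 372 miRNAs, counted from the highest level, and miR-25-3p ranked 30 to 37. miR-92b-3p (98 to 129), miR-92b-5p (99 to 142) and miR-32-5p (121 to 197) lay in the middle. The remaining arms ranked lower: miR-92a-1-5p 173 to 247, miR-32-3p 188 to 247, miR-25-5p 209 to 271, miR-363-5p 298 to 357 and miR-363-3p 316 to 356. Ranks between assays depend on how well each assay amplifies, which is not given, so they are a description of the arrays.

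**Figure D1:**
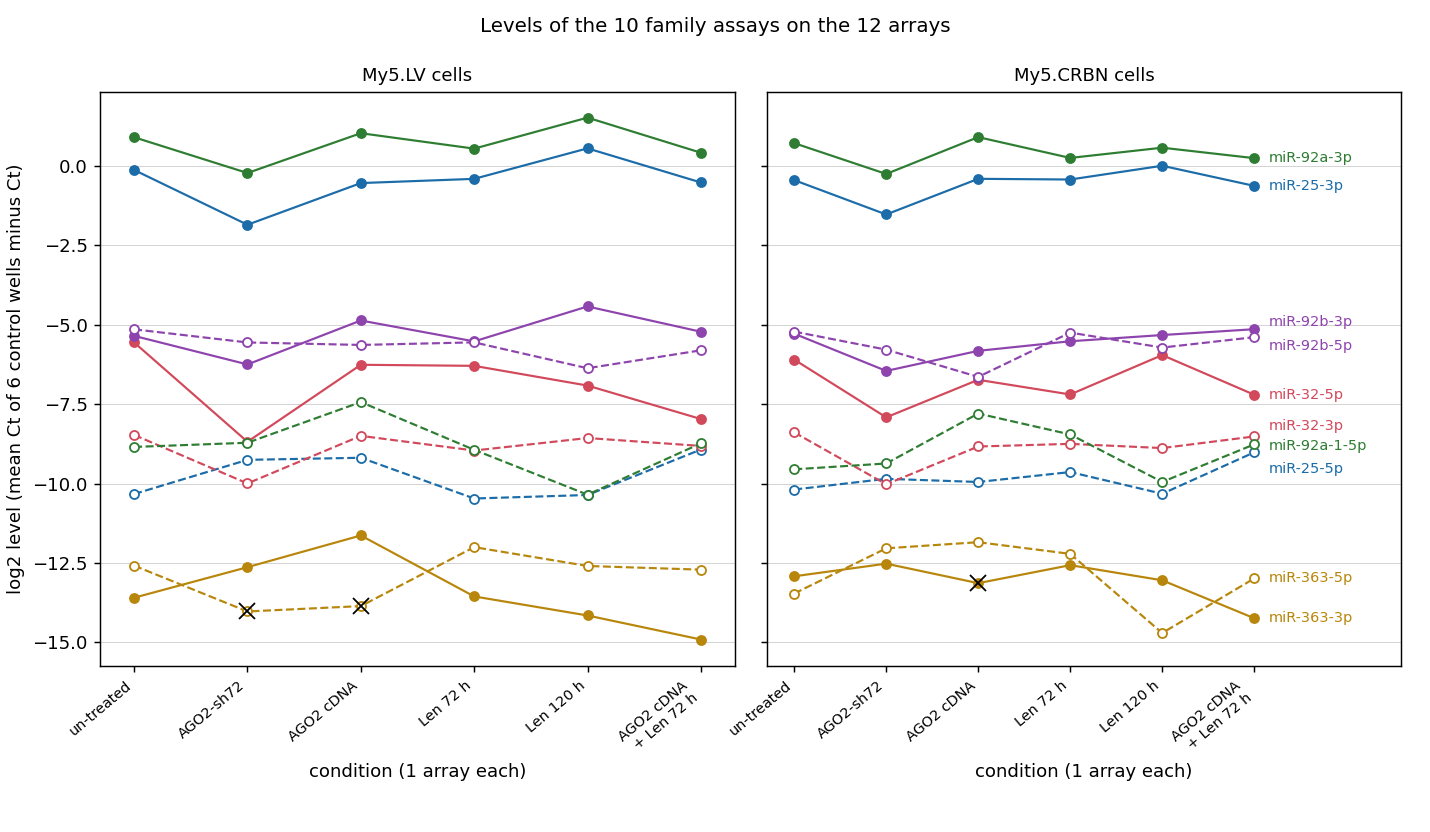
Log2 level (mean Ct of 6 control wells minus Ct, vertical axis) of the 10 family assays in the 6 conditions of My5.LV cells (left) and My5.CRBN cells (right), 1 array per point. Filled points and solid lines are the arms with the shared seed, open points and dashed lines the other arms, and crosses mark values at the Ct cap of 35; the lines only join the points of an assay. miR-92a-3p and miR-25-3p run side by side at the top, and miR-32-5p drops from -5.56 to -8.68 from My5.LV to My5.LV.sh72.

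Over the 12 arrays the log2 levels of miR-92a-3p had an SD of 0.51, those of miR-92b-3p 0.56, miR-25-3p 0.63, miR-363-3p 0.90 and miR-32-5p 0.94. For the 314 miRNAs under Ct 35 on all 12 arrays the median SD was 0.72, with quartiles of 0.58 and 0.91. miR-92a-3p, miR-92b-3p and miR-25-3p thus varied less than the median miRNA of the array and miR-32-5p varied more than the upper quartile. Of the other arms, miR-92b-5p had an SD of 0.45, miR-32-3p 0.55, miR-25-5p 0.57, miR-92a-1-5p 0.83 and miR-363-5p 0.91.

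Between un-treated My5.CRBN and My5.LV cells no family assay differed by 3 fold. The log2 fold changes were -0.32 for miR-25-3p, -0.54 for miR-32-5p, -0.19 for miR-92a-3p, 0.07 for miR-92b-3p and 0.67 for miR-363-3p, beside a control-well SD of 0.22. miR-363-5p was at -0.88 and miR-92a-1-5p at -0.70, and the other 3 arms lay between -0.07 and 0.14. Past 3 fold in this comparison were 1.88% of all miRNAs on the lower side and 2.15% on the higher side.

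Under AGO2-sh72 the shared-seed arms other than miR-363-3p stood lower in both lines, miR-32-5p by the most. The log2 level of miR-32-5p was -5.56 in My5.LV and -8.68 in My5.LV.sh72, and -6.10 in My5.CRBN and -7.92 in My5.CRBN.sh72. It fell by 3.13 on the log2 scale (8.74 fold lower) in My5.LV cells and by 1.82 (3.53 fold lower) in My5.CRBN cells, against control-well SDs of 0.51 and 0.30. In My5.LV cells this was the second lowest of the 372 log2 fold changes, and in My5.CRBN cells it ranked 27 from the lowest. The Ct values behind it were 25.7 and 29.7 in My5.LV cells and 26.9 and 28.4 in My5.CRBN cells, far from the cap.

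miR-25-3p stood at -0.13 in My5.LV and -1.85 in My5.LV.sh72, 3.31 fold lower, and at -0.45 in My5.CRBN and -1.53 in My5.CRBN.sh72, a log2 fold change of -1.08 that did not reach 3 fold. miR-92a-3p went from 0.90 to -0.22 in My5.LV cells and from 0.72 to -0.25 in My5.CRBN cells (log2 fold changes -1.13 and -0.97). miR-92b-3p went from -5.35 to -6.25 and from -5.28 to -6.45 (-0.90 and -1.17). All of these differences exceeded the control-well SD, but neither miR-92 reached 3 fold in either line. With the mean of the 314 miRNAs detected on all arrays as normalizer, miR-92a-3p and miR-92b-3p in My5.LV cells were at -0.26 and -0.04, inside that SD, and in My5.CRBN cells at -0.42 and -0.63. miR-363-3p, near the limit of detection, had log2 fold changes of 0.96 and 0.40.

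On the other arms, miR-32-3p stood at -8.47 and -10.00 in My5.LV and My5.LV.sh72 (-1.53, short of 3 fold) and fell from -8.39 to -10.02 in My5.CRBN cells (3.10 fold lower). miR-25-5p had log2 fold changes of 1.08 and 0.34, miR-92a-1-5p of 0.13 and 0.18, and miR-92b-5p of -0.41 and -0.57. miR-363-5p reached the cap on the My5.LV.sh72 array, which gives a log2 fold change of -1.44 or lower, and was at 1.42 in My5.CRBN cells. Within the family the arms thus did not move alike: miR-32-5p and miR-32-3p were 8.74 and 2.88 fold lower in My5.LV cells, while miR-25-5p was 2.11 fold higher where miR-25-3p was 3.31 fold lower.

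In total, My5.LV.sh72 cells had 2 of the 10 assays at least 3 fold lower (miR-25-3p and miR-32-5p), beside 23.7% of all miRNAs, and My5.CRBN.sh72 cells also had 2 of the 10 (miR-32-5p and miR-32-3p), beside 12.9%; none was 3 fold higher, beside 1.88% and 1.61%. The 5 shared-seed arms had medians of -1.13 (My5.LV) and -1.08 (My5.CRBN), against -0.79 and -0.52 over all miRNAs. Abundant miRNAs stood lower than that: those with a Ct under 26 on the un-treated array of the other line had a median of -1.52 in My5.LV cells (113 miRNAs, 44.2% at least 3 fold lower) and -1.13 in My5.CRBN cells (127 miRNAs, 20.5%). The count of family assays was close to the background. The abundant class held miR-25-3p (-1.72) and miR-92a-3p (-1.13) in My5.LV cells, on either side of its median. In My5.CRBN cells it held miR-25-3p (-1.08), miR-92a-3p (-0.97), miR-92b-3p (-1.17) and miR-92b-5p (-0.57), and also miR-32-5p (-1.82), the member farthest below its median.

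RNU6-2 moved against the other control wells under AGO2-sh72, by 0.98 (My5.LV) and 0.45 (My5.CRBN) relative to the mean of the 6. With the 5 SNORD wells alone, miR-32-5p was at -2.93 and -1.73, while miR-25-3p in My5.LV cells (-1.53) and miR-32-3p in My5.CRBN cells (-1.54) were short of 3 fold. Normalized to the mean of the 314 miRNAs, which brings the overall medians of -0.79 and -0.52 to 0.07 and 0.02, miR-32-5p was at -2.26 and -1.27 and miR-25-3p in My5.LV cells was at -0.86. Of the 4 calls under AGO2-sh72, that of miR-32-5p in My5.LV.sh72 cells was the 1 that remained under all 5 alternative settings. RNA was taken from whole cultures, so less miRNA in each cell and a shift in the cells that made up the culture cannot be told apart.

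**Figure D2:**
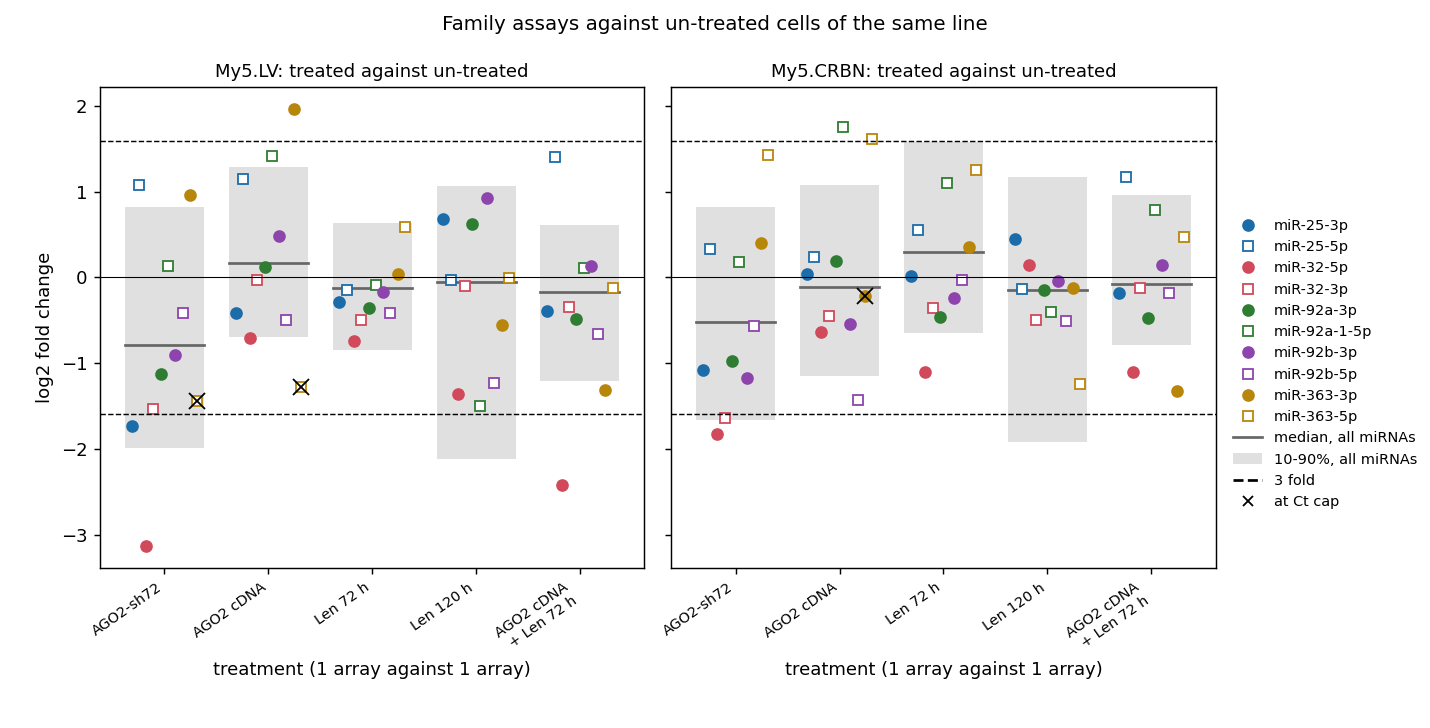
Log2 fold change (vertical axis) of the 10 family assays in each treatment against its own un-treated line, My5.LV on the left and My5.CRBN on the right, 1 array against 1 array. Circles are arms with the shared seed, open squares the other arms, grey boxes the range from the 10th to the 90th percentile of all 372 miRNAs with their median as a grey line, dashed lines 3 fold and crosses values with an array at the Ct cap. miR-32-5p lies below the grey box under AGO2-sh72 in both lines and under AGO2 cDNA with lenalidomide.

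The other miRNAs of the gene clusters that hold MIR25, MIR92A1, MIR92A2 and MIR363 give the surroundings of the family. Of 21 such arms on a list of the textbook clusters, 17 are on the array, and none of the further assays among the 330 matched to RefSeq lies within 50 kilobases of a family gene; the unmatched assays were not placed. Under AGO2-sh72, My5.LV cells had 6 of the 17 at least 3 fold lower (miR-17-5p, miR-18a-5p, miR-18a-3p, miR-19b-3p, miR-106b-5p and miR-93-5p) and My5.CRBN cells also 6 (miR-18a-5p, miR-18a-3p, miR-19a-3p, miR-19b-3p, miR-106b-5p and miR-93-5p), and none was 3 fold higher, beside 23.7% and 12.9% of all miRNAs lower and 44.2% and 20.5% of the abundant ones. The median of the 17 was -1.40 (My5.LV) and -1.53 (My5.CRBN).

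In miR-17-92 the median of 8 assays was -1.59 in both lines, from -2.25 (miR-18a-5p) to 0.11 (miR-19a-5p) in My5.LV cells. In miR-106b-25 the 4 assays ran from -1.87 (miR-106b-5p) to 0.47 (miR-93-3p) in My5.LV cells and from -1.95 to 0.96, for the same assays, in My5.CRBN cells. In miR-106a-363 the median of 5 assays was -0.14 and -0.18, with miR-20b-5p, its most abundant assay, at -1.33 and -1.56 and miR-106a-3p at the cap on 1 array of each comparison. miR-25-3p and miR-92a-3p lay within the range of the arms encoded beside them in both lines. For miR-92a-3p (-1.13 and -0.97) this rests on miR-19a-5p alone, at Ct 31.8 to 32.8. The other miR-17-92 assays were all lower, at -1.40 or less in My5.LV cells and -1.53 or less in My5.CRBN cells. miR-25-3p (-1.72 and -1.08) stood above miR-106b-5p and miR-93-5p (-1.83 and -1.64) and below their other arms. miR-25-5p lay above the miR-106b-25 range in My5.LV cells (1.08) and inside it in My5.CRBN cells (0.34). miR-92a-1-5p, at 0.13 and 0.18, exceeded the highest miR-17-92 assay, miR-19a-5p at 0.11 and -0.06, by less than the control-well SD. miR-19b-3p, counted with miR-17-92, is also encoded by MIR19B2 in the miR-106a-363 cluster.

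**Figure D3:**
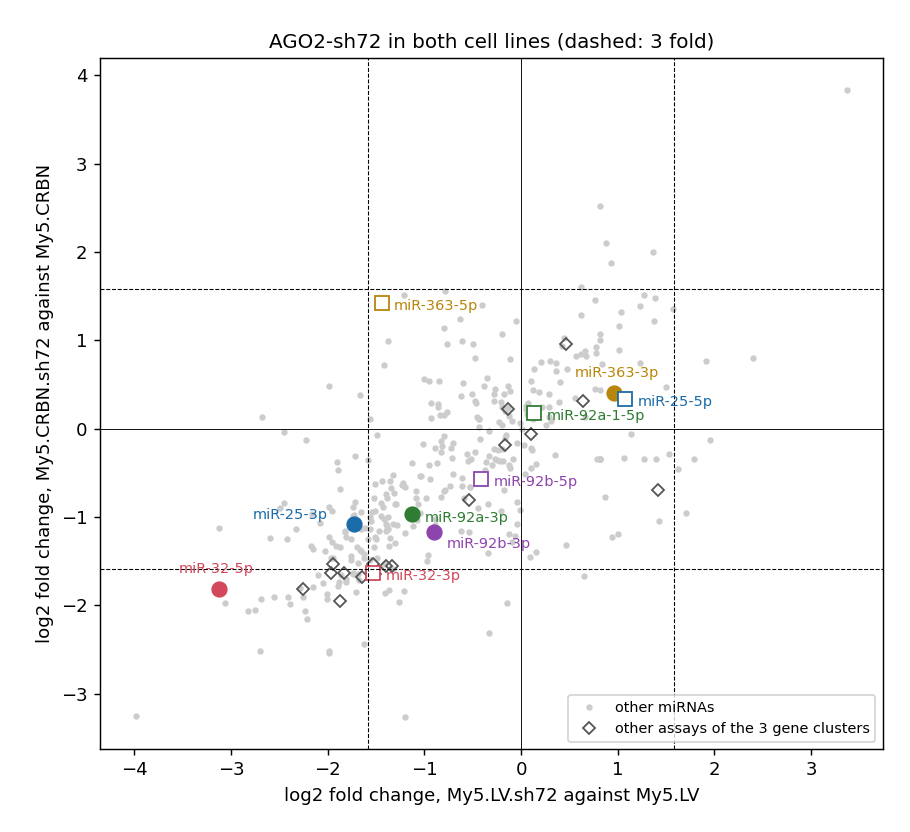
Log2 fold change under AGO2-sh72 in My5.LV cells (horizontal axis) and in My5.CRBN cells (vertical axis), each against the un-treated line, for all 372 miRNAs; the 4 arrays are all different. Large filled circles are family arms with the shared seed, open squares the other arms, diamonds the 17 other assays of the 3 gene clusters and dashed lines 3 fold. miR-32-5p is at -3.13 and -1.82, and miR-363-5p, at the Ct cap in My5.LV.sh72 cells, is the family assay that lies apart, at -1.44 and 1.42.

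With AGO2 cDNA the 4 more abundant shared-seed arms differed by less than 2 fold from un-treated cells. In My5.LV.AGO2 cells the log2 fold changes were -0.41 for miR-25-3p, 0.13 for miR-92a-3p, 0.48 for miR-92b-3p and -0.70 for miR-32-5p, with a control-well SD of 0.41. In My5.CRBN.AGO2 cells they were 0.04, 0.19, -0.54 and -0.64, with a control-well SD of 0.56. The median of the shared-seed arms was 0.13 in My5.LV cells (-0.51 with RNU6-2 alone as normalizer) and -0.22 in My5.CRBN cells, beside 0.17 and -0.11 over all miRNAs.

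The assays that passed 3 fold under AGO2 cDNA were rarer ones. miR-363-3p went from -13.59 to -11.63 in My5.LV cells, 3.89 fold higher, at Ct 33.8 and 32.8; it was at the cap in My5.CRBN.AGO2 cells, which gives a log2 fold change of -0.22 or lower. miR-92a-1-5p went from -9.55 to -7.80 in My5.CRBN cells, 3.37 fold higher and rank 369 of 372 from the lowest, and from -8.85 to -7.43 in My5.LV cells, a log2 fold change of 1.41. This arm of the miR-92a hairpin on chromosome 13 was therefore at its highest levels on the arrays with AGO2 cDNA alone, in both lines. miR-363-5p went from -13.46 to -11.85 in My5.CRBN cells, 3.07 fold higher at Ct 34.3 and 33.7, and reached the cap in My5.LV.AGO2 cells, which gives -1.27 or lower. In My5.LV and My5.CRBN cells respectively, miR-25-5p was at 1.14 and 0.24, miR-32-3p at -0.03 and -0.44 and miR-92b-5p at -0.49 and -1.43, all short of 3 fold.

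With RNU6-2 alone as normalizer, miR-363-3p in My5.LV cells was at 1.32 and miR-92a-1-5p and miR-363-5p in My5.CRBN cells were at 1.53 and 1.39, all short of 3 fold, and with the reverse transcription control wells miR-363-5p was at 1.54.

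The count was thus 1 of 10 higher in My5.LV.AGO2 cells, beside 5.91% of all miRNAs, and 2 of 10 higher in My5.CRBN.AGO2 cells, beside 2.15%. None was 3 fold lower, beside 0.806% and 6.18%. With a Ct cap of 32 miR-92a-1-5p stayed at 1.75, while the calls of miR-363-3p and miR-363-5p could not be examined with that cap, since both arrays of each comparison are above it. Of the 17 cluster neighbours 1 passed 3 fold in My5.LV.AGO2 cells, miR-106a-3p, at a log2 fold change of 2.00 or higher since the un-treated array is at the cap of 35. None did in My5.CRBN.AGO2 cells or in the 6 lenalidomide comparisons with un-treated cells, and the median of the 17 under AGO2 cDNA was 0.35 (My5.LV) and -0.04 (My5.CRBN).

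Set against AGO2-sh72 in place of un-treated cells, AGO2 cDNA gave log2 fold changes of 1.31 and 1.12 for miR-25-3p, 2.42 and 1.18 for miR-32-5p, 1.25 and 1.16 for miR-92a-3p and 1.38 and 0.63 for miR-92b-3p, in My5.LV and My5.CRBN cells respectively. Of these miR-32-5p in My5.LV cells reached 3 fold (5.37 fold higher), beside 22.3% of all miRNAs higher and 0.269% lower; in My5.CRBN cells no family assay did, beside 10.2% higher and 3.49% lower. These comparisons share the AGO2-sh72 and AGO2 arrays with those above and add no independent values.

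Lenalidomide for 3 days moved no family assay by 3 fold in either line. The shared-seed arms lay between -0.74 (miR-32-5p) and 0.04 (miR-363-3p) in My5.LV cells, and between -1.10 (miR-32-5p) and 0.35 (miR-363-3p) in My5.CRBN cells, with control-well SDs of 0.18 and 0.22. The shares of all miRNAs at least 3 fold lower and higher were 0.538% and 0.538% in My5.LV cells and 1.61% and 9.95% in My5.CRBN cells. In My5.CRBN cells, miR-32-5p ranked 14 from the lowest of 372, where the median of all miRNAs was 0.30. miR-92a-1-5p was at -0.09 (My5.LV) and 1.10 (My5.CRBN), and miR-363-5p at 0.58 and 1.25. The other 3 arms lay between -0.49 and -0.14 in My5.LV cells and between -0.36 and 0.55 in My5.CRBN cells.

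After 5 days miR-25-3p, miR-92a-3p and miR-92b-3p stood higher in My5.LV cells and miR-32-5p lower, all short of 3 fold. miR-25-3p was at 0.68, miR-92a-3p at 0.62, miR-92b-3p at 0.93 and miR-32-5p at -1.36, with a control-well SD of 0.41. miR-363-3p was at -0.56. The other arms lay at or below 0: miR-92a-1-5p was at -1.50, miR-92b-5p at -1.22, miR-25-5p at -0.03, miR-32-3p at -0.10 and miR-363-5p at -0.01. miRNAs with a Ct under 26 had a median of 0.48 in this comparison, beside -0.05 over all miRNAs. In My5.CRBN cells the shared-seed arms lay between -0.14 and 0.45, with miR-32-5p at 0.14, and the other arms between -1.24 (miR-363-5p) and -0.13 (miR-25-5p). None of the 10 assays passed 3 fold in either line, where 14.2% and 13.4% of all miRNAs were at least 3 fold lower and 4.3% and 5.11% at least 3 fold higher.

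The direct comparison of 5 with 3 days had 1 family assay past 3 fold, miR-363-5p in My5.CRBN cells (from -12.21 to -14.71, 5.63 fold lower, Ct 31.3 and 33.4), beside 22% of all miRNAs on that side; My5.LV cells had none, beside 11.8% lower and 4.3% higher. miR-32-5p had log2 fold changes of -0.62 (My5.LV) and 1.24 (My5.CRBN) between these times.

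With AGO2 cDNA and 3 days of lenalidomide together, miR-32-5p was the lowest family assay against un-treated cells in My5.LV cells, and miR-363-3p in My5.CRBN cells. The log2 level of miR-32-5p was -7.97 in My5.LV cells, against -5.56 un-treated, -6.26 with AGO2 cDNA alone and -6.29 with lenalidomide alone. Against un-treated cells it was 5.32 fold lower, rank 9 of 372 from the lowest, and it was 1 of 10 family assays at least 3 fold lower where 5.11% of all miRNAs were. It was also 3.27 fold lower than with AGO2 cDNA alone and 3.19 fold lower than with lenalidomide alone, comparisons that share this 1 array. In My5.CRBN cells its log2 level was -7.20, against -6.10 un-treated, -6.73 with AGO2 cDNA and -7.20 with lenalidomide, so that it stood at -1.11 against un-treated cells (rank 18) and at the level of lenalidomide alone. miR-363-3p was at -1.32 there (rank 8), at Ct 33.7 and 34.6.

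The abundant arms showed little of this. miR-25-3p was at -0.39 and -0.18, miR-92a-3p at -0.49 and -0.47 and miR-92b-3p at 0.13 and 0.14 against the un-treated arrays of the My5.LV and the My5.CRBN line, with control-well SDs of 0.67 and 0.37. miR-25-5p was at 1.40 and 1.17, and miR-363-3p at -1.32 in both lines. The remaining arms lay between -0.66 (miR-92b-5p) and 0.11 (miR-92a-1-5p) in My5.LV cells and between -0.18 (miR-92b-5p) and 0.78 (miR-92a-1-5p) in My5.CRBN cells. In My5.CRBN cells none of the 10 passed 3 fold, beside 0.806% of all miRNAs lower and 4.3% higher. RNU6-2 deviated by 1.16 and 0.68 from the mean of the control wells in these comparisons; miR-32-5p in My5.LV cells was at -2.18 with RNU6-2 left out of the normalizer, and was at least 3 fold lower under all 5 alternative settings.

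Against AGO2 cDNA alone, lenalidomide-treated My5.LV cells had 2 assays past 3 fold on the lower side, miR-32-5p and miR-363-3p (from -11.63 to -14.91, 9.68 fold lower, Ct 32.8 and 33.6), beside 11.6% of all miRNAs lower and 0.269% higher. No family assay passed 3 fold in the same comparison of My5.CRBN cells, beside 2.42% lower and 8.33% higher. Against lenalidomide alone, miR-363-3p was 3.18 fold lower in My5.CRBN cells, where 6.99% of all were, and miR-32-5p was the 1 assay lower in My5.LV cells, beside 5.91%.

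Between the lines under the same treatment, the 1 family assay that passed 3 fold was miR-363-5p. miR-363-5p was higher in My5.CRBN.sh72 than in My5.LV.sh72 cells and higher in My5.CRBN.AGO2 than in My5.LV.AGO2 cells, by at least 3.97 and at least 4.03 fold since the My5.LV arrays were at the cap, and after 5 days of lenalidomide My5.CRBN cells had 4.32 fold less of it. The shares of all miRNAs past 3 fold in those directions were 3.23%, 1.61% and 6.45%. In the other direction, 0.806% of all miRNAs were lower in My5.CRBN.sh72 than in My5.LV.sh72 cells, 9.14% were lower in My5.CRBN.AGO2 than in My5.LV.AGO2 cells and 6.45% were higher at 5 days. The other 9 assays passed 3 fold in none of the 6 comparisons between lines, which include those at 3 days of lenalidomide (0.538% of all miRNAs lower and 9.41% higher in My5.CRBN cells) and with AGO2 cDNA and lenalidomide (1.88% and 6.99%). For miR-363-3p in My5.CRBN.AGO2 against My5.LV.AGO2 cells the value is a bound, -1.50 or lower.

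The difference between the arms of a hairpin is free of the normalizer, since both wells are on the same array. As a measure of its error, the difference between the wells of the positive PCR control had an SD of 0.37 cycles over the 12 arrays and that of the reverse transcription control 0.19 cycles, but that of cel-miR-39 had an SD of 1.34 cycles. The wells of the first pair lie at Ct 17.3 to 24.9 and those of cel-miR-39 at 31.5 or later. miR-25-5p, miR-32-3p and miR-92a-1-5p lie largely between, at Ct 27.5 to 31.8, where no control well gives the error. So do, on most arrays, miR-32-5p (Ct 24.7 to 29.7), miR-92b-3p (23.9 to 27.7) and miR-92b-5p (24.3 to 28.5). Arm differences of the family had SDs of 0.67 cycles (miR-32), 0.74 (miR-92b), 1.01 (miR-92a), 1.04 (miR-25) and 1.44 (miR-363). Over the 64 hairpins with both arms under Ct 35 on all arrays, the first 4 of these family hairpins included, the median SD was 0.73 cycles.

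The arm with the shared seed had the lower Ct on all 12 arrays for miR-25 (by 7.40 to 10.9 cycles), miR-92a (8.46 to 11.9) and miR-32 (0.85 to 2.93). For miR-92b the arms were near parity, with the difference between -0.69 and 1.95 cycles and miR-92b-3p ahead on 7 of 12 arrays. For miR-363 the 3p arm was ahead on 4 of 12.

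In AGO2-sh72 treated cells the gap between miR-25-3p and miR-25-5p closed from 10.2 to 7.40 cycles in My5.LV cells and from 9.74 to 8.32 in My5.CRBN cells. The change of -2.80 was the second lowest among the 64 hairpins, with each hairpin's more abundant arm over 12 arrays set against the other, and that of -1.42 ranked 17. For miR-92a the changes were -1.26 and -1.15, for miR-92b -0.49 and -0.60, and for miR-32 -1.60 and -0.18. A narrower gap was common: 50 (My5.LV) and 54 (My5.CRBN) of the 64 hairpins had a change below 0, with medians of -0.92 and -0.57.

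With AGO2 cDNA the gap of miR-92a narrowed by a like amount (-1.29 and -1.57), and that of miR-92b went the other way (0.98 and 0.89) where the medians of the 64 hairpins were -0.57 and -0.36. With AGO2 cDNA and lenalidomide, miR-25 was at -1.80 and -1.35, rank 3 and 2 of 64 from the lowest, and miR-32 at -2.07 and -0.98, rank 1 and 13. In My5.LV cells given lenalidomide for 5 days the gap widened by 2.12 cycles for miR-92a, 2.15 for miR-92b and 0.71 for miR-25 and narrowed by 1.26 for miR-32, beside a median of 0.65; in My5.CRBN cells the 4 changes were 0.25, 0.46, 0.59 and 0.64, beside 0.32. All comparisons within a line share its un-treated array, so the values are given side by side only.

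**Figure D4:**
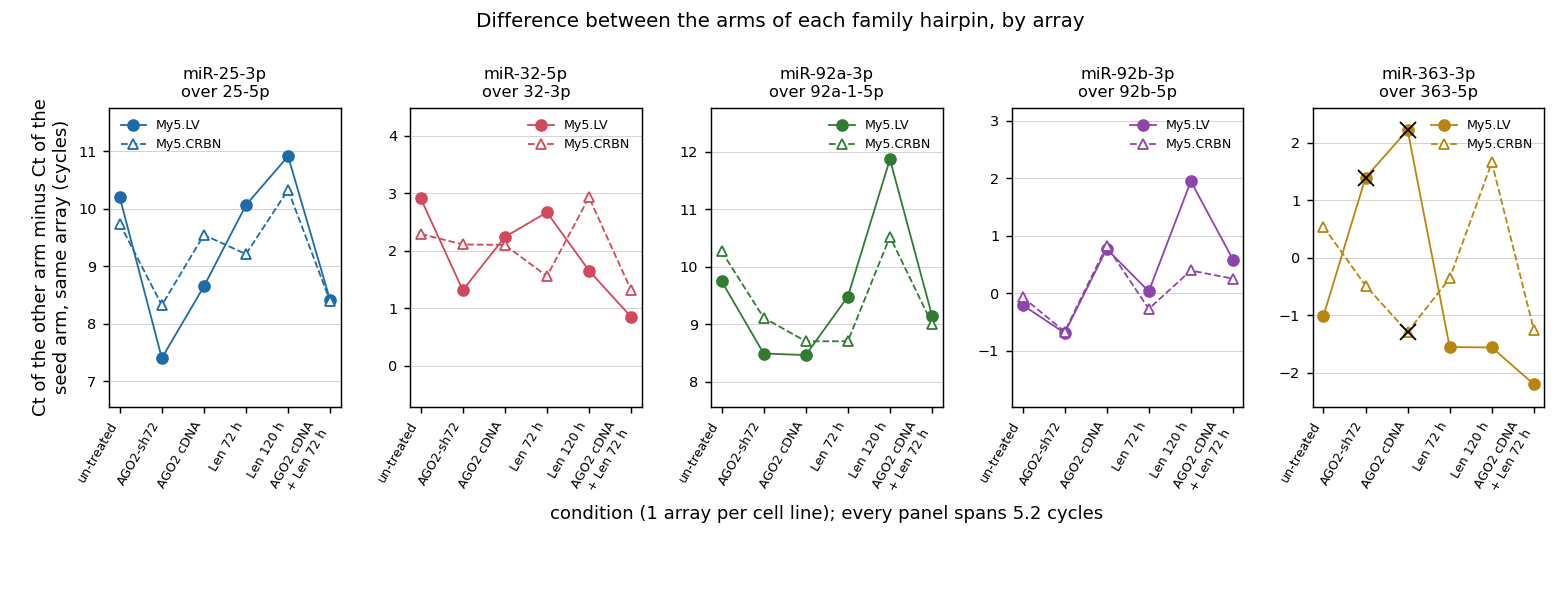
Ct of the other arm minus Ct of the arm with the shared seed on the same array (vertical axis, cycles), for each family hairpin in the 6 conditions of My5.LV cells (filled circles, solid line) and My5.CRBN cells (open triangles, dashed line); a higher value means more of the seed arm, every panel spans the same number of cycles and crosses mark an arm at the Ct cap. The gap of miR-25 is smallest, at 7.40 cycles, in My5.LV.sh72 cells, and those of miR-92a and miR-92b are widest in My5.LV cells after 5 days of lenalidomide.

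Among the shared-seed arms other than miR-363-3p, the differences on the same array separated miR-32-5p from the rest. For miR-363-3p, at Ct 31.6 up to the cap, the difference from miR-92a-3p varied more, from 12.3 to 15.7 cycles (SD 1.11). Ct of miR-25-3p minus Ct of miR-92a-3p stayed between 0.57 and 1.63 cycles (SD 0.32) and Ct of miR-92b-3p minus that of miR-92a-3p between 5.39 and 6.73 (SD 0.33), SDs near that of the positive PCR control. The wells of that control lie at Ct 20.5 or earlier, so they do not give the error of miR-92b-3p or miR-32-5p, which lie later. Ct of miR-32-5p minus Ct of miR-92a-3p ran from 6.46 cycles in My5.LV to 8.46 in My5.LV.sh72 cells (SD 0.71). Relative to miR-92a-3p, miR-32-5p was thus 2.00 cycles later under AGO2-sh72, 1.98 later after 5 days of lenalidomide and 1.92 later with AGO2 cDNA and lenalidomide in My5.LV cells. In My5.CRBN cells the corresponding values were 0.85 later, 0.29 earlier and 0.63 later.

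The miRNAs whose levels followed each member most closely were sought among the 313 others under Ct 35 on all 12 arrays, by Pearson r over the 12 arrays. The arrays share the normalizer and the un-treated lines, so r is a description. miR-25-3p was closest to miR-423-5p (r = 0.98), miR-130b-3p (0.97) and miR-23b-3p (0.97), and r was 0.94, 0.90 and 0.93 without the 2 AGO2-sh72 arrays, a check chosen after seeing the data. miR-92a-3p was closest to miR-24-3p (0.94), miR-30a-5p (0.92) and miR-20a-3p (0.92), the last of which is encoded in the same cluster as MIR92A1. miR-92b-3p was closest to let-7d-5p, miR-365a-3p and miR-23a-3p (0.91, 0.91 and 0.90). miR-32-5p had no close companion: its highest values were 0.81 with miR-532-5p, 0.81 with miR-19b-3p and 0.80 with miR-181c-5p, and 0.58, 0.64 and 0.56 without the AGO2-sh72 arrays.

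Within the family r was 0.86 for miR-25-3p and miR-92a-3p, 0.83 for miR-25-3p and miR-92b-3p and 0.81 for miR-92a-3p and miR-92b-3p. For miR-32-5p it was 0.70 with miR-25-3p, 0.66 with miR-92a-3p and 0.48 with miR-92b-3p. Without the AGO2-sh72 arrays the first 3 values were 0.70, 0.54 and 0.57 and the last 3 were 0.22, 0.33 and -0.10. The Pearson r of miR-32-5p with the other members thus leaned on those arrays. The rank correlation (Spearman) over all arrays was 0.70, 0.27 and 0.55 for the first 3 pairs. For miR-32-5p it was 0.65 with miR-25-3p, 0.66 with miR-92a-3p and 0.24 with miR-92b-3p. How far these rank values rest on the AGO2-sh72 arrays was not tested. miR-363-3p, at the cap on 1 array, was not compared.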

How the data were processed

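Total RNA of the 12 cultures was reverse transcribed and run by the authors on miScript miRNA PCR Arrays. The deposited table used here holds the Ct of each well, unnormalized, in cycles; the other deposited table, which holds linear ratios of 11 arrays to un-treated My5.LV cells, was not used. Ct values were capped at 35 and normalized to the average of 6 small-RNA wells (SNORD61, SNORD68, SNORD72, SNORD95, SNORD96A and RNU6-2); the methods state neither choice. Groups came from sample titles. A log2 fold change is a difference of log2 levels between 2 arrays, and 24 comparisons were made without any test. An assay at the cap on 1 array gives a bound. A fold assumes that product doubles in each cycle, and assay efficiencies are not given in the sources used here. Arrays have no depth, and precision is that of a single well.

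The members, the cluster list and the 3 fold threshold were chosen with earlier results of these data known. All 10 family assays were named, cluster neighbours where at least 3 fold changed against un-treated cells or at the ends of a range, and the 3 assays most like each seed-sharing member. Alternatives were the global mean of 314 miRNAs, RNU6-2 alone, the 5 SNORD wells or the reverse transcription control wells as normalizer, a cap of 32, assays under Ct 35 on both arrays, and each seed-sharing assay left out. The code that counts assays past 3 fold was tested on simulated data. Sequences and positions are from RefSeq (GRCh38.p14). Python 3.11.15, NumPy 2.4.6, pandas 2.3.3 and Matplotlib 3.10.9 were used.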

Additional observations from a re-analysis of the deposited data

Results flagged for a closer look

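The effects of AGO2-sh72 and of AGO2 cDNA on miR-363-5p pointed in opposite directions in the cell lines, by more than the control-well SD in each line. Under AGO2-sh72 the log2 fold change was -1.44, with the treated array at the Ct cap, for the My5.LV line and 1.42 for the My5.CRBN line, a difference of -2.87. Under AGO2 cDNA it was -1.27, again at the cap, and 1.62, a difference of -2.89. With 1 array per condition these differences were not tested, and the cap makes both of them upper limits of the signed value. Before the cap, the Ct of miR-363-5p was 35.14 in My5.LV.sh72 and 35.09 in My5.LV.AGO2 cells. The Ct of miR-363-5p was between 31.3 and 34.3 on the other 10 arrays, in the range where the wells of cel-miR-39 on 1 array differed by a root mean square of 1.43 cycles; the part of this scatter in the result was not tested.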

How the results depend on the processing

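The median log2 fold change of the 5 shared-seed arms was recomputed under each alternative for the 10 treatments and for My5.CRBN against My5.LV. With the 5 SNORD wells, or with assays under Ct 35 on both arrays, all 11 medians moved by less than the control-well SD. The SNORD setting was bound to do so, since those 5 wells are among the 6 of the main normalizer. The other setting could change only the median of My5.CRBN.AGO2, where miR-363-3p was the 1 shared-seed arm at the cap. Neither is therefore a check of the medians. With RNU6-2 alone the median moved to -0.44 for My5.CRBN against My5.LV, -2.11 for My5.LV.sh72, -0.51 for My5.LV.AGO2, -1.65 for My5.LV cells with AGO2 cDNA and lenalidomide, -1.53 for My5.CRBN.sh72 and -1.15 for My5.CRBN cells with AGO2 cDNA and lenalidomide. With the global mean it moved to -0.26 for My5.LV.sh72, -0.54 for My5.CRBN.sh72, -0.59 for My5.CRBN cells after 3 days of lenalidomide and 0.19, from -0.04, after 5 days. The reverse transcription control wells gave -1.46 for My5.CRBN.sh72, and a cap of 32 gave -0.47 for My5.CRBN cells after 3 days of lenalidomide. When 1 assay at a time was left out, the median in My5.LV cells after 5 days of lenalidomide ran from 0.029 (without miR-25-3p or miR-92b-3p) to 0.65, and was 0.06 without miR-92a-3p. The median of an even number of assays is the mean of the middle 2. In these low cases they were miR-363-3p (-0.56) and either miR-92a-3p (0.62) or miR-25-3p (0.68). Over the 100 values of 10 assays and 10 treatments, 5 were at least 3 fold lower and 3 higher; RNU6-2 alone gave 18 and 0, the global mean 2 and 7, the SNORD wells 3 and 4, the reverse transcription control wells 7 and 2 and the cap of 32 gave 7 and 1, where an assay above 32 on both arrays holds only the difference of the control wells. miR-25-3p in My5.LV.sh72 cells was short of 3 fold with the SNORD wells (-1.53) and the global mean (-0.86), miR-32-5p in My5.CRBN.sh72 cells with the global mean (-1.27), and miR-32-3p there with the SNORD wells (-1.54) and the global mean (-1.09). Under AGO2 cDNA, miR-363-3p in My5.LV cells (1.32) and miR-92a-1-5p and miR-363-5p in My5.CRBN cells (1.53 and 1.39) were short of it with RNU6-2 alone, and miR-363-5p also with the reverse transcription control wells (1.54). No called value changed its sign. With the global mean, the 3 closest companions of miR-25-3p and of miR-32-5p were the same 3 miRNAs, those of miR-92a-3p were miR-24-3p, miR-20a-5p and miR-146b-5p, and those of miR-92b-3p were miR-365a-3p, miR-23a-3p and miR-20b-5p. No paired analysis was possible because no condition has a replicate number to pair by; a fit with the cell line as a block, which takes the 2 lines as replicates of a treatment, was not run. The single array per condition, and for the MIR363 arms a Ct near the cap, limit every value.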
